A study of Mus musculus with 2 samples.

Results

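The insulin-like growth factor (IGF) genes followed here are 10 of the 22072 gene symbols in the tables: the ligand gene Igf1, the binding protein genes Igfbp2, Igfbp3, Igfbp4, Igfbp5, Igfbp6 and Igfbp7, and the receptor genes Igf1r, Insr and Igf2r. They were chosen by symbol, with the values of these libraries known, so their values are given as a description. All 10 were found, in 15 of the 28107 transcript rows, and every one of these rows carried the status OK in both libraries. RNA-seq was run on lung cells of adult mice that had eaten doxycycline food (625 mg/kg) for 16 days, sorted as lineage-negative, CD326-positive and CD24-intermediate, a gate meant to enrich secretory airway cells without cilia. There were 2 libraries, each from RNA pooled over 4 mice: the control pool, from mice with tetOCre and both floxed genes (Mst1-flx/flx and Mst2-flx/flx), and the D/D-labelled pool (Mst1/2 D/D), from mice that also had Scgb1a1-rtTA. Both groups thus carried floxed Mst1 and Mst2, the Cre transgene and doxycycline exposure, and they differed in the transactivator driven by the club cell promoter Scgb1a1, in active Cre and in the intended deletion, which cannot be told apart. With 1 library per genotype there is no replicate check, no p-value is given, and intervals are exact (Clopper-Pearson) 95% intervals of an FPKM ratio that cover counting error only.

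IGF1 and IGF2 are secreted growth factors that act through the tyrosine kinase receptor IGF1R and, with insulin, through the related insulin receptor. IGF binding proteins hold the ligands outside the cell, carry them and limit or prolong their access to receptors, and several also bind matrix. IGF2R, the cation-independent mannose 6-phosphate receptor, takes up IGF2 for degradation and sorts lysosomal enzymes. In lung, IGF ligands are made largely by mesenchymal cells and macrophages, and epithelial cells carry the receptors.

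The targeted genes were not strongly reduced. Stk4, which encodes Mst1, had an FPKM (fragments per kilobase of transcript, scaled to the mapped fragments of the library) of 5.38 in the control pool and 4.71 in the other, and Stk3, which encodes Mst2, had 7.28 and 7.09. The exons that Cre removes are not named in the labels, so these whole-transcript values do not check the deletion, and that pool is called D/D-labelled for this reason. The listed transcripts held about 8772260 reads in the control pool and about 8339860 in the D/D-labelled one. The sorted antigen Epcam (CD326) had FPKM of 28.2 and 31.0, and Cyp2f2, a club cell cytochrome, 4694 and 5305. Scgb1a1, the defining club cell secretoglobin, was listed at 0 in both with the status HIDATA, which marks a locus with too many reads to estimate, so it was not measured, and the alveolar type 2 cell gene Sftpc was at 7888 and 10270. The pools therefore held alveolar cell transcripts as well.

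The abundant binding protein genes differed between the pools in opposite directions. The 250 bases before the annotated start are shown for Igfbp7, the member that was most strongly higher, for Igfbp5 and Igfbp6, the abundant binding protein genes that were lower, and for Igf1r, the receptor gene that was lower. The sequences come from RefSeq (build GRCm38.p6) and are written 5′ to 3′ on the gene's strand. Capitals mark matches, on either strand, to the TEAD core GGAATG (TEAD factors are the DNA-binding partners of the Hippo effectors Yap and Taz), the AP-1 motif TGANTCA, the FoxO motif GTAAACA, the GC box GGGCGG or the TATA box TATAAA.
Igfbp7 (chr5:77408046-77408295, minus strand): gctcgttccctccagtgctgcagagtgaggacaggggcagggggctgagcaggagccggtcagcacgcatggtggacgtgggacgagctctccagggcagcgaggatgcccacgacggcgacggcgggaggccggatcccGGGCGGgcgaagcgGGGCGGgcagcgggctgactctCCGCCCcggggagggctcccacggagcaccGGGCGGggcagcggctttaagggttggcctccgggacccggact
Igfbp5 (chr1:72874866-72875115, minus strand): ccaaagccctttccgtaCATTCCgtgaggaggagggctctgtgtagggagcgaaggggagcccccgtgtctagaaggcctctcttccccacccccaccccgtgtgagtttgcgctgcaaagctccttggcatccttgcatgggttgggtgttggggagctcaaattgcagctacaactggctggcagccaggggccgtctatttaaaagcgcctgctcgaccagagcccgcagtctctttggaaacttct
Igfbp6 (chr15:102143936-102144185, plus strand): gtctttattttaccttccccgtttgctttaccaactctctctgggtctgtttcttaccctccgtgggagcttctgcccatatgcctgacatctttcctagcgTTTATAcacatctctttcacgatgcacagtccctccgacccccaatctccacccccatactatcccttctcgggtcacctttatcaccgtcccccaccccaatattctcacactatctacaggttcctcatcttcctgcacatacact
Igf1r (chr7:67952007-67952256, plus strand): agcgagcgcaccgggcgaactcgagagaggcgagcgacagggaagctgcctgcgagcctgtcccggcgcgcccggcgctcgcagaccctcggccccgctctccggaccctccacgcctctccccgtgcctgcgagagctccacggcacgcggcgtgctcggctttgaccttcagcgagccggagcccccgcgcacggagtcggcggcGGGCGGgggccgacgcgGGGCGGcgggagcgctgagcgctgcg

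The Igfbp7 sequence is 74.0% G or C and holds 4 GC boxes, the nearest beginning 44 bases before the start, while Igf1r, at 77.6% G or C, holds 2. Igfbp5, at 58.8%, holds 1 TEAD core, which begins 233 bases before the start and reads CATTCC on the gene's strand. Igfbp6, at 49.6%, holds 1 TATA box match, on the opposite strand and 148 bases before the start. Of 32851 promoters of this length, 32.7% hold a GC box, 12.6% the TEAD core, 12.4% the TATA box, 6.75% the AP-1 motif and 3.17% the FoxO motif. The median over all promoters was 52.4% G or C. RefSeq sequences matched 9 of the 10 genes in 10 promoters, and Insr was not matched. Among the promoters not shown, Igf2r holds 3 GC boxes, 1 promoter of Igfbp2 holds 3 GC boxes and the other 1 AP-1 motif, Igf1 holds 1 AP-1 motif, Igfbp4 holds 1 TATA box, and Igfbp3 holds none of the motifs searched. These are matches of letters and no measurement of binding.

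Igfbp7 was the most abundant binding protein transcript in both libraries and the one that differed most. It encodes a secreted, matrix-associated protein that binds IGFs only weakly. Its FPKM was 30.4 in the control pool and 104 in the D/D-labelled pool, 3.42-fold higher (interval 3.18 to 3.69; chr5:77778265-77837070, mm9). These values rest on about 921 and 2822 reads. Igfbp7 went from rank 533 to rank 154 by FPKM among all 22072 genes. On the log2(FPKM + 1) scale its difference was 1.74, and 19 of the 9945 genes that reached FPKM of 1 in either pool, Igfbp7 included, had a difference at least as high. Among 9820 of those genes with transcripts of at least 300 bases, the number was 11.

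Of the 2 Igfbp7 transcript rows, the row of 1120 bases (NM_008048) held nearly all of the signal, with FPKM of 30.4 and 104. The row of 1213 bases (NM_001159518) was at 1.04e-06 in the control pool and 0.463 in the other. The split between these rows depends on how Cufflinks shared reads. The locus overlaps that of Polr2b, a subunit gene of RNA polymerase II, which had FPKM of 6.82 and 7.04. The strand of reads was not available, so reads from any shared stretch cannot be assigned.

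**Figure D1:**
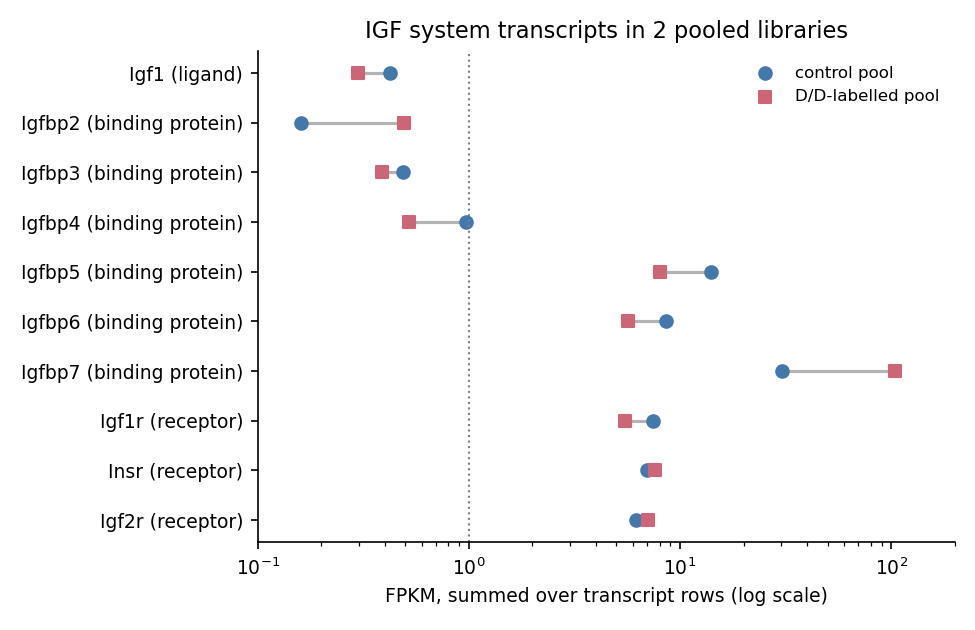
FPKM of each IGF gene (log axis) in the control pool (circles) and the D/D-labelled pool (squares), 1 pooled library each; the dotted line marks FPKM of 1. Igfbp7 lies farthest right in both and moved from 30.4 to 104, while Igf1, Igfbp2, Igfbp3 and Igfbp4 lie under 1 in both libraries.

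Igfbp5 and Igfbp6, the next binding proteins by level, were lower. Igfbp5, a matrix-binding IGFBP, had FPKM of 14.1 in the control pool and 8.05 in the D/D-labelled pool, 1.75-fold lower (1.63 to 1.88; chr1:72904639-72921439), from about 2228 and 1141 reads. Its log2(FPKM + 1) difference was -0.73, and 1.65% of the 9945 genes were at least as low. Igfbp6, which binds IGF2 in preference to IGF1, had FPKM of 8.58 and 5.67, 1.51-fold lower (1.25 to 1.83; chr15:101974617-101979943). On the log2(FPKM + 1) scale Igfbp6 was at -0.52, which is just inside the 1.5-fold limit used for counts. Without Igfbp7, the summed FPKM of the other 5 binding protein genes was 24.2 and 15.1, 1.604-fold lower.

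The other binding protein genes were under FPKM of 1 in both libraries, 3 of the 6. Igfbp4, an IGF inhibitor that the protease PAPP-A cleaves, had 0.964 and 0.521, 1.85-fold lower (1.14 to 3.09). Igfbp3, the main carrier of IGFs in serum, had 0.485 and 0.389, with an interval of the ratio from 0.449 to 1.42 that includes 1. Igfbp2, in mouse lung a marker of mature alveolar type 1 cells, had 0.161 and 0.493, a ratio of 3.07 (1.11 to 9.30) from about 5.67 and 15.6 reads. Igfbp2 and Igfbp7 were thus the 2 binding protein genes that were higher, and the other 4 were lower in FPKM. At these depths the size of the Igfbp2 and Igfbp3 differences could not be fixed more closely than these intervals. Igfbp4 lay just under FPKM of 1 and is not counted among the genes past that limit.

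The make-up of the binding protein transcripts differed between the pools. Summed over the 6 genes, FPKM was 54.6 in the control pool and 119 in the other, a ratio of 2.18. Igfbp7 made up 55.6% of this sum in the control pool and 87.3% in the D/D-labelled pool. The share of Igfbp5 was 25.7% and 6.76%, and that of Igfbp6 was 15.7% and 4.76%. Igfbp2, Igfbp3 and Igfbp4 each made up less than 2% in both. The level of Igfbp7 was 2.16 times that of Igfbp5 in the control pool and 12.9 times in the other. The order of the 3 abundant binding proteins, Igfbp7 over Igfbp5 over Igfbp6, was the same in both libraries, and the quotient of Igfbp5 over Igfbp6 differed little (1.64 and 1.42).

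**Figure D2:**
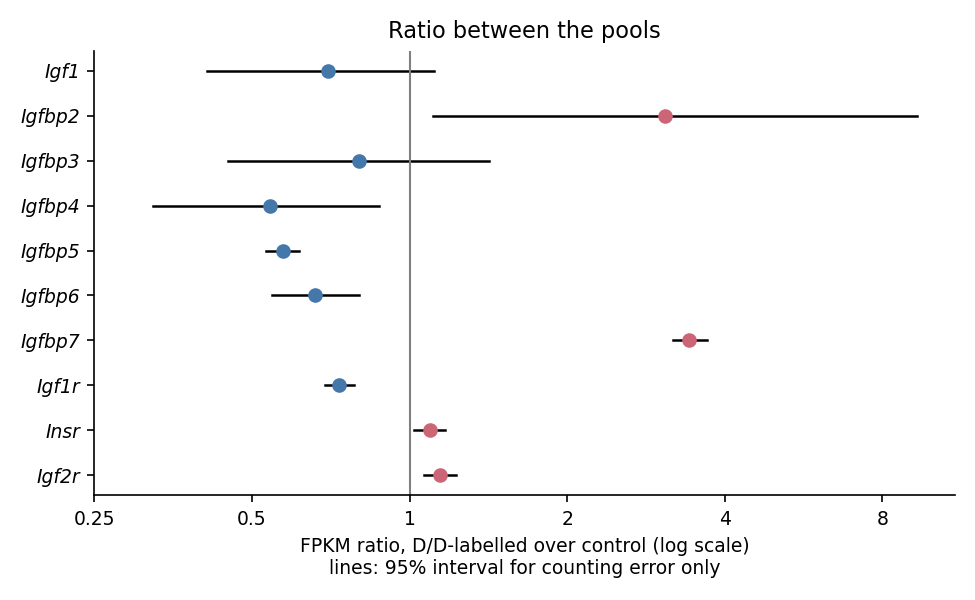
FPKM ratio of each IGF gene, D/D-labelled over control (log axis), with lines for the 95% interval of counting error only. Igfbp7 lies at 3.42, Igfbp4, Igfbp5, Igfbp6 and Igf1r lie below 1 with intervals that do not reach 1, and the intervals of Igf1 and Igfbp3 include 1.

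The receptor genes were expressed at similar levels, and Igf1r was the one with the largest difference, in the lower direction. Igf1r had FPKM of 7.44 in the control pool and 5.46 in the D/D-labelled pool, 1.36-fold lower (1.28 to 1.45; chr7:75097143-75378553), from about 2412 and 1584 reads. Insr, the insulin receptor gene, stood at 6.94 and 7.58, a ratio of 1.09 (1.02 to 1.17; chr8:3150922-3279617), and its log2 difference of 0.11 turned to -0.02 when the trend with transcript length was removed. Igf2r had 6.18 and 7.06, a ratio of 1.14 (1.06 to 1.23; chr17:12875272-12962572), and its log2 difference of 0.17 was 0.04 with that trend removed. The locus of Igf2r overlaps that of its antisense RNA gene Airn, which had FPKM of 2.303 and 2.19, and without strand the reads of the pair cannot be told apart. The summed FPKM of the receptor genes was 20.6 and 20.1.

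The order of the receptors was thus not the same in the libraries. In the control pool Igf1r was highest, at 1.07 times Insr, with Igf2r lowest. In the D/D-labelled pool Insr was highest and Igf1r lowest, at 0.721 times Insr. With 1 library each, neighbours in this order have no spread to be compared with.

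Igf1 transcripts were scarce in the sorted cells. Igf1 had FPKM of 0.425 in the control pool and 0.297 in the other, a ratio of 0.699 (0.410 to 1.11) whose interval includes 1. Its 5 transcript rows share exons, and 2 of them held nearly all of the signal. The row of 1087 bases (NM_184052) had 0.217 and 0.160, and the row of 7069 bases (NM_001111275) had 0.208 and 0.137, so both were lower in the same library. Igf2 had 2.80 and 2.58 as a sum of 3 rows, but its control estimate carried the status FAIL. Igfbp1 was listed at 0 in both libraries, where 3 reads would have given FPKM of 0.0729 and 0.0815. The insulin genes Ins1 and Ins2 were also listed at 0.

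Of the 10 IGF genes, 6 reached FPKM of 1 in at least 1 library, and 2 of these lay 1.5-fold or more apart on the log2(FPKM + 1) scale, Igfbp7 higher and Igfbp5 lower. Of all 9945 genes that reached FPKM of 1, 3.02% lay 1.5-fold or more above control and 2.59% below, 5.61% in all. Because the genes were chosen with these values known, nothing is read from their count. The median log2 difference over the 9945 genes was 0.07.

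**Figure D3:**
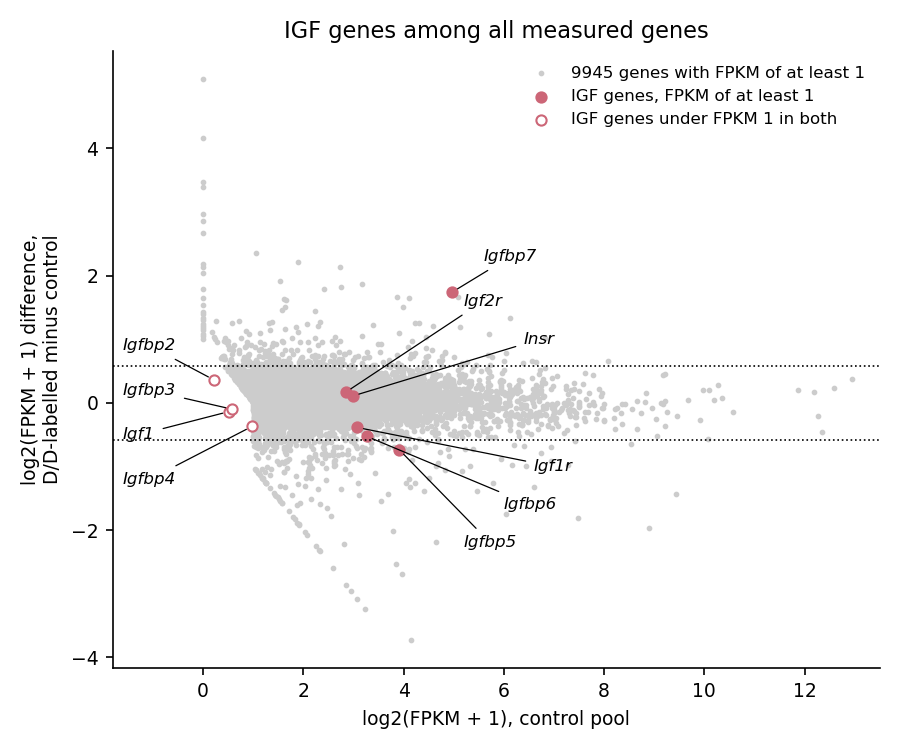
Difference on the log2(FPKM + 1) scale, D/D-labelled minus control, against log2(FPKM + 1) in the control pool for 9945 genes (grey) and the IGF genes (red; open where under FPKM of 1 in both), with dotted lines at 1.5-fold. Igfbp7, at 1.74, stands above nearly all genes of its level, Igfbp5 lies below the lower line, and the receptors lie between the lines.

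Several IGF genes mark particular lung cell types, so marker genes of 10 cell types were set beside them. In bulk samples fewer cells of a type and less RNA per cell cannot be told apart. Alveolar type 1 cell markers were higher in the pool in which Igfbp7 was higher. Of 14 such markers, 12 lay 1.5-fold or more higher and 0 lower, their median log2 difference was 0.85, and their summed FPKM was 331 and 716, a ratio of 2.16. Rtkn2, 1 of the 12, reached FPKM of 1 in the D/D-labelled pool only, which by itself places it on the higher side. Ager, a membrane receptor of alveolar type 1 cells, had 32.9 and 107, a ratio of 3.26 close to that of Igfbp7, and 1 of the 14 markers (Akap5) had a higher log2 difference than Igfbp7. Clic5 and Hopx, with ratios of 3.27 and 3.34, were also close to Igfbp7. Other markers differed less, among them Cldn18 (1.74), Aqp5 (1.59) and Pdpn (1.57). Cav1, at 6.32 and 6.29, had a ratio of 0.995 (0.864 to 1.14). The part of alveolar type 1 cells in the Igfbp7 difference was not tested. Lung endothelium is known to express Igfbp7. Of 14 endothelial markers, 12 were under FPKM of 1 in both libraries and none was listed at 0. The endothelial sum was 15.0 and 11.4, and without the VEGF receptor gene Kdr (9.05 and 5.11) it was 5.99 and 6.25. Esam, an endothelial adhesion molecule gene, made up 2.26 and 3.45 of that last sum, and Cdh5, an endothelial cadherin gene, 0.425 and 0.475. Other endothelial markers were lower, among them Vwf, at 0.802 and 0.328, a ratio of 0.409 (0.307 to 0.541). Pecam1 was at 0.878 and 0.565, a ratio of 0.643 (0.431 to 0.930). The part of endothelial cells in the Igfbp7 difference was not tested.

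Several mesenchymal, basal, leukocyte and club cell markers were lower in the pool in which Igfbp5 was lower. Of 15 mesenchymal markers, 4 reached FPKM of 1 in either pool, with 2 of them (Dcn and Mfap4) 1.5-fold or more lower and 0 higher. Mfap4 and Col3a1 passed in the control pool only, which by itself places them on the lower side. The summed mesenchymal FPKM was 21.2 and 9.93, 2.13-fold lower, with Dcn, the gene of the proteoglycan decorin, at 11.9 and 3.79, and without Dcn it was 9.23 and 6.14. Col1a1, a defining fibroblast collagen, was at 0.824 and 0.828. Among the other mesenchymal markers under FPKM of 1 in both, Acta2 and Myh11 were higher. Acta2 had 0.291 and 0.604, a ratio of 2.07 (1.05 to 4.30), and Myh11 0.0746 and 0.172, a ratio of 2.31 (1.16 to 4.90). Des and Postn were also higher, and Tcf21, Lum, Tagln, Pdgfra, Pdgfrb and Cspg4 lower, all with intervals that include 1. In the control pool Igfbp5 was at 14.1, and levels of different genes do not give the share of a cell type. The part of mesenchymal cells in the Igfbp5 difference was not tested. The 5 mesothelial markers summed to 8.64 and 5.93, and without Upk3b (3.47 and 0.575) to 5.16 and 5.35. Msln was at 2.58 and 3.50 and Upk1b at 1.59 and 1.56. Lrrn4 and Wt1, under FPKM of 1 in both, were lower like Upk3b. Lrrn4 had 0.873 and 0.279, a ratio of 0.319 (0.188 to 0.503), and Wt1 had 0.124 and 0.0139.

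The 7 basal cell markers summed to 25.4 and 9.48, 2.68-fold lower, with Krt5 at 10.7 and 2.998. The 15 leukocyte markers summed to 49.9 and 15.2, 3.27-fold lower. Of the 9 that reached FPKM of 1 in either pool, 6 were at least 1.5-fold lower and 0 higher. Of those 6, Ear2, Tyrobp, Laptm5 and Coro1a passed in the control pool only, which by itself places them on the lower side. Csf1r passed in the D/D-labelled pool only, which places it on the higher side. Chi3l3, a macrophage lectin, had 23.97 and 4.51, and the macrophage gene Emr1 was listed at 0 in the D/D-labelled pool. Without Chi3l3 the leukocyte sum was 25.9 and 10.7. The leukocyte marker Csf1r went the other way, at 0.984 and 1.80, a ratio of 1.83 (1.43 to 2.37). Its log2(FPKM + 1) difference of 0.50 was inside the 1.5-fold limit. Among 8 measured club cell markers 5 lay 1.5-fold or more lower and 0 higher, and the club list, with Scgb1a1 at 0, summed to 6284 and 5910. Without Cyp2f2 the club sum was 1590 and 605. The part of these cells in the Igfbp5 difference was not tested. Markers of ciliated cells summed to 32.9 and 54.1, those of alveolar type 2 cells to 12060 and 14871, and those of neuroendocrine cells to 18.8 and 16.0.

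**Figure D4:**
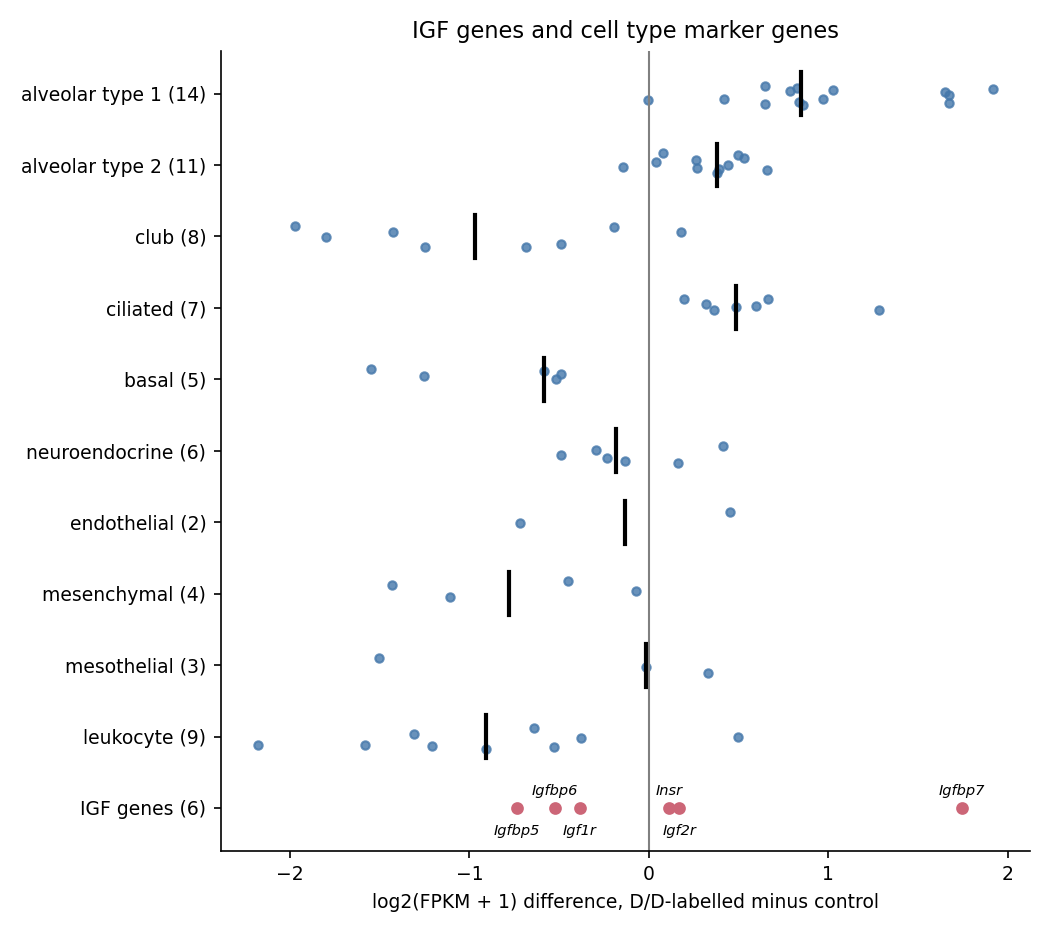
Difference on the log2(FPKM + 1) scale of cell type marker genes that reached FPKM of 1 in either pool (blue points; number in brackets; black bars are medians) and of the IGF genes past that level (red). Igfbp7, at 1.74, lies among the highest alveolar type 1 markers, and Igfbp5 and Igfbp6 lie on the same side of 0 as most club, basal, mesenchymal and leukocyte markers. Markers that reached FPKM of 1 in only 1 pool are included, and passing in that pool alone fixes their side of 0.

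Other genes of the pathway were followed in 5 lists, 1 of further ligands and regulators and the rest downstream of the receptors. Of their 101 symbols, 99 were found, and Hras and Rack1 were listed only as Hras1 and Gnb2l1. Of these genes 78 reached FPKM of 1. Among the 78, 2 were 1.5-fold or more higher and 0 lower, beside 3.02% higher and 2.59% lower among all genes. That count of 2 was 6 with a pseudocount of 0.1, 7 in TPM, and 1 with a filter at FPKM of 5. The share of all genes 1.5-fold apart, 5.61% in the main setting, was 10.96%, 15.6% and 6.23% under those settings. TPM and the filter at 5 also change which genes are measured, with 14070 and 4253 genes in all. The median log2 difference was 0.09 against 0.07 over all genes. Both higher genes were in the PI3 kinase, Akt and mTOR list. One of them, Rps6kb2, which encodes a ribosomal S6 kinase, stood at 3.05 and 5.13, a ratio of 1.68 (1.33 to 2.13). Pik3cb, a catalytic PI3 kinase subunit, had 4.45 and 6.93. At the lower end of that list were the translation repressor gene Eif4ebp1 (3.31 and 2.33), the lipid phosphatase gene Inppl1 (4.16 and 3.77) and Pik3ca (6.43 and 5.98). Its 26 measured genes had a median of 0.12, and Akt1 was at 7.02 and 7.70.

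Among the 18 measured receptor substrates and adaptors the median was 0.10 and 0 were 1.5-fold apart. The highest were Grb14, an adaptor that inhibits the insulin receptor (16.5 and 22.4), the Ras exchange factor gene Sos2 (4.98 and 6.73) and the receptor substrate gene Irs1 (2.07 and 2.97). Irs2 had 10.7 and 12.0. The lowest were Gnb2l1, which encodes the scaffold RACK1 (42.8 and 36.1), Socs3 (8.23 and 7.73) and Sh2b1 (2.53 and 2.39). In the FoxO list, with 14 measured genes and a median of 0.04, the cell cycle inhibitor gene Cdkn1a had 16.5 and 23.4, Foxo3 14.1 and 18.1, and the apoptosis gene Bcl2l11 2.31 and 3.13. The lowest there were the repressor gene Bcl6, at 24.7 and 16.3, Sesn2, at 5.24 and 4.43, and Ddit4, at 5.22 and 4.76.

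In the Ras and MAP kinase list, with 17 measured genes and a median of 0.09, Hras1 (1.35 and 2.18), Braf (7.25 and 8.996) and Elk1 (1.04 and 1.43) were highest, and Rps6ka1 (3.62 and 3.03) and Nras (6.12 and 5.95) were among the lowest. Of 16 other ligand, binding protein and regulator genes, 3 reached FPKM of 1: Igf2, given above, Ghr, the growth hormone receptor gene (3.01 and 3.10), and Igf2bp2, an RNA-binding protein gene (2.61 and 2.99).

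**Figure D5:**
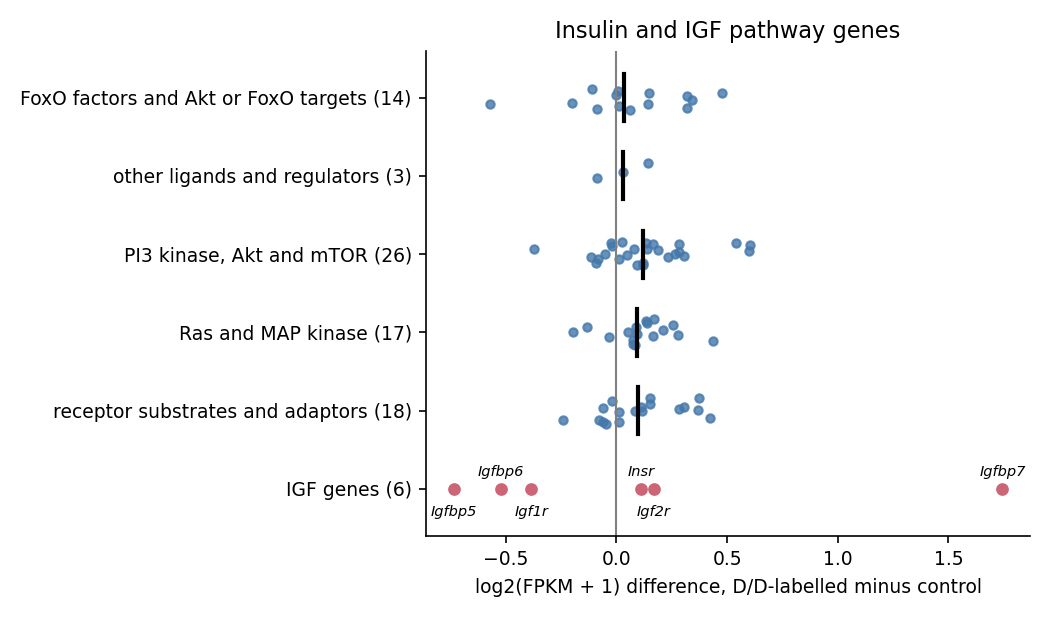
Difference on the log2(FPKM + 1) scale of insulin and IGF pathway genes that reached FPKM of 1 in either pool, by list (blue points; number in brackets; black bars are medians), and of the IGF genes past that level (red). List medians lie between 0.03 and 0.12, and single pathway genes spread to both sides of 0, with Bcl6 the lowest at -0.57.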

How the data were processed

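The authors deposited 1 table per library, each with an FPKM value, a coverage signal (mean read depth over the transcript) and a transcript length for 28107 RefSeq transcript rows, per the file headers. Reads were processed with TopHat and Cufflinks on mm9, per the submitters' processing notes. The sources used here give no versions, read length or strandedness. FPKM was summed over rows of a symbol, and differences are log2((FPKM + 1) in the D/D-labelled pool over (FPKM + 1) in control), which understates the differences of low genes. Starts were raised by 1 to count from 1. Approximate reads are coverage times length over 47.1 bases, the median of values between 25 and 75 bases in single-transcript genes, and this size is an assumption. Whole reads could not be recovered, since 26.0% and 25.9% of low values lay within 0.1 of a whole number, so no count test was run. Ratio intervals use these reads and a depth ratio of 0.895; amplified reads are not independent molecules. For Igf1, whose rows differ in length, the interval rests on reads summed over its rows. The 10 members and all gene lists were chosen with earlier results of these data known. From each pathway list the text names the genes 1.5-fold apart and the 3 highest and lowest among those with FPKM of at least 1, and further genes (Akt1, Irs2 and the marker genes) were chosen after their values were seen; some genes that the rule picks are not reported here. No genes are named for a like pattern, because 2 libraries give 1 difference per gene. The calculations were tested on simulated data and used Python 3.11.15, pandas 2.3.3, SciPy 1.17.1 and statsmodels 0.14.6.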

Additional observations from a re-analysis of the deposited data

How the results depend on the processing

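The results were recomputed under 9 alternatives and 1 added after the data were seen (transcripts of at least 300 bases only). Marker sums without the marker that changed most were also added then. They are given above for the endothelial, mesenchymal, mesothelial, leukocyte and club lists only. Igfbp7 kept a log2 difference between 1.67 and 1.77, Igfbp5 between -0.84 and -0.73, Igfbp6 between -0.64 and -0.52 and Igf1r between -0.52 and -0.39 under all of them. The count of 1 IGF gene at least 1.5-fold lower became 2 with a pseudocount of 0.1 and 2 after centring on the median of all genes, where Igfbp6 passed the limit. After conversion to TPM, which raises the values so that more genes pass the filter at 1, 5 IGF genes were 1.5-fold apart (2 higher, 3 lower), and 15.6% of all genes were. That share was 10.96% with a pseudocount of 0.1, 7.80% with a pseudocount of 0.5 and 2.78% without a filter. It was 6.23% with a filter at FPKM of 5, 5.36% after centring and 5.35% with the length trend removed. The count of 2 pathway genes 1.5-fold apart became 6 and 4 with pseudocounts of 0.1 and 0.5, 7 in TPM, and 1 with a filter at FPKM of 5, after centring and with the length trend removed. The cause of these moves was not tested further. Igf1, Igfbp2, Igfbp3 and Igfbp4 rest on few reads, which limits their ratios. No paired analysis was possible because each genotype has 1 pooled library, and for the same reason no replicate could be left out.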

Other observations

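A pair of IGF-related genes under FPKM of 1 in both libraries, named after their values were seen, differed beyond counting error. Igf2bp1, which encodes an IGF2 mRNA-binding protein known mainly from fetal tissue, had FPKM of 0.0780 in the control pool and 0.357 in the D/D-labelled pool, a ratio of 4.57 (2.64 to 7.97). Stc2, which encodes stanniocalcin 2, an inhibitor of the protease PAPP-A, had 0.803 and 0.287, a ratio of 0.357 (0.164 to 0.670). The proteases themselves were near 0, with Pappa at 0.0234 and 0.0257 and Pappa2 at 0.0282 and 0.0196. The protease gene Htra1, whose product cleaves IGF binding proteins, had 0.475 and 0.650. Intervals cover counting error only, and no replicate check exists for these values.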
